A study of Mus musculus with 9 samples.

Results

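The tRNAs described here are the 40 entries annotated as tRNA whose identifiers place them on mouse chromosome 13. They were selected by that annotation and by no measured value, out of 226 tRNA entries and 2049 small RNAs listed in either of the 2 deposited tables. Small RNAs were sequenced from an Ago2 RNA-IP, an Sfpq RNA-IP and the input extract, with 3 libraries per group and 9 in all. An RNA-IP recovers RNA bound to a protein by precipitating that protein with an antibody, and the input is RNA taken from the extract beforehand. Ago2 is an Argonaute protein, the core of the miRNA silencing complex, and Sfpq binds RNA in the nucleus, where it is part of paraspeckles.

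No treatment, time point or genetic change is stated for any of the 3 groups. The study's methods name the antibody 2D4 for Ago2 RNA-IP, and which Sfpq antibody was used for these libraries is not given in the sources used here. The labels and the study's results section give the cells as RAW 264.7, a mouse macrophage-like line, although the source field of the labels says stem cell and the design text names P19, an embryonal carcinoma line. In the input of the Ago2 table, 6 miRNAs listed as blood or myeloid summed to a signal of 335997. Most of this sum was miR-21a-5p with 265164, while miR-146a-5p had 52710 and miR-223-3p had 103. Of the listed stem-cell miRNAs only 1 was in the Ago2 table and 2 in the Sfpq table, all at 0 in the input. No RNA-IP with a control antibody is among the libraries, so RNA that any pull-down would bring down cannot be told apart from RNA associated with Ago2 or Sfpq.

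tRNAs carry amino acids to the ribosome and read the codons of an mRNA through their anticodon. They are transcribed by RNA polymerase III from many gene copies, and copies that read the same codon often have near-identical or identical sequences. In the mouse, a large share of these copies lies on chromosome 13 in the region of the replication-dependent histone genes. Small-RNA libraries read mostly fragments of tRNAs, since the mature tRNA is longer than the RNAs they are made for and its modified bases hinder reverse transcription. The values below are therefore levels of tRNA-derived reads assigned to a gene, and they do not show how much intact tRNA was present.

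Of the 40 entries, 39 matched a RefSeq tRNA gene exactly by coordinates (mouse build GRCm38, mm10), and these genes read 18 anticodons for 13 amino acids. RefSeq names them n-T, followed by the amino acid in 1 letter, the anticodon in DNA letters and a copy number. Methionine was the most frequent with 8 members, followed by valine and lysine with 5 each and by alanine and threonine with 3 each. Glutamate, glycine, glutamine, arginine, isoleucine, serine and tryptophan had 2 members each and aspartate had 1. RefSeq holds 105 tRNA genes on chromosome 13, and the 66 that are not among the members were not analysed here. The entry with no RefSeq tRNA, of 83 nt at chr13:21795799-21795881, lies within the span of the histone gene H2bc22.

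Each table gives 1 signal per small RNA and group, which the authors pooled over the 3 libraries, so the spread between RNA-IP libraries is unknown except at very low signals, and no test was run. A signal of 20 stands for about 78.5 reads with Ago2 and 68.5 with Sfpq, and in the input it stands for 51.9 in the Ago2 table and 59.3 in the Sfpq table. Intervals given below are 95% exact binomial intervals on these read numbers and cover counting error only. The log2 ratio is the log2 of the RNA-IP signal over the input signal of the same table, and medians of it were taken over members whose mean of RNA-IP and input signal was at least 20, except that medians of the difference between the RNA-IPs, per anticodon and per band of input level used all members with a finite ratio. The authors scaled the input once per table, and the input signals of the members were 1.10 to 1.18 times as high in the Ago2 table as in the Sfpq table.

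The members reached very different levels in the input. The input signal of the Ago2 table ran from 8.21 to 22981 with a median of 748.2, and the 4 highest members together held 70.3% of the summed signal of all 40. The highest was n-TEctc11, a glutamate tRNA gene at chr13:21160785-21160856, with an input signal of 22981. The glycine tRNA genes n-TGgcc6 and n-TGgcc7 followed with input signals of 20967 and 20805, and n-TVcac8, a valine tRNA gene, with 15122. The fifth was n-TEttc5, a glutamate tRNA gene inside the span of Btn1a1, with 9486. These 5 stood apart from the rest, since the next member, n-TVcac4, had an input signal of 2651.

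**Figure D1:**
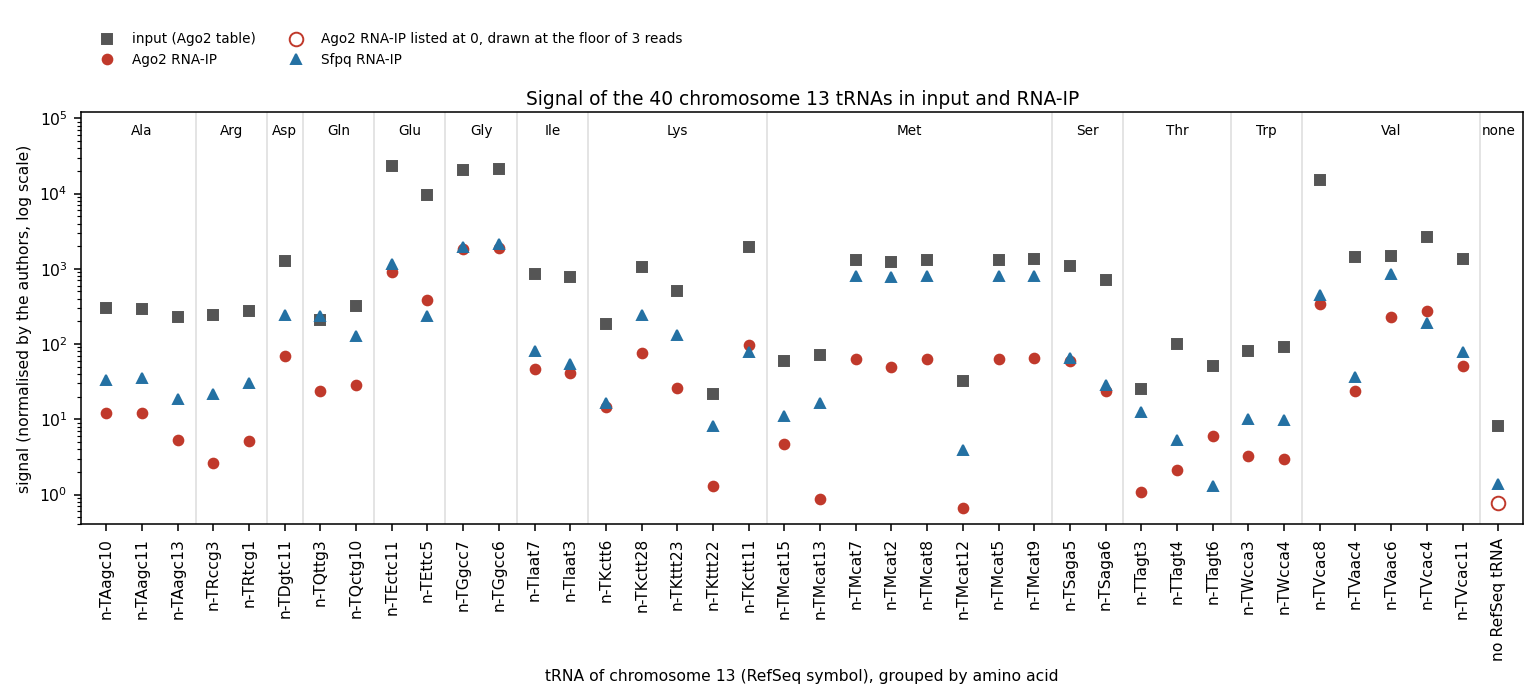
Signal of each chromosome 13 tRNA in the input of the Ago2 table (squares), the Ago2 RNA-IP (circles) and the Sfpq RNA-IP (triangles, on the scale of the Sfpq table, where the input of the members was lower by a median factor of 1.13), on a log axis, with members grouped by amino acid. The Ago2 circles lie below the input for all 40 members, and the Sfpq triangles lie near the input for 5 methionine members, n-TVaac6 and n-TQttg3.

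In the Ago2 RNA-IP, all 40 members were below input. Of the 36 members with a mean signal of at least 20, all 36 were more than 2-fold below input, where 49.3% of all 781 small RNAs at that level were, and all 36 were also more than 4-fold below it (43.9% of all small RNAs). None was more than 2-fold above input (16.6% of all small RNAs). Among tRNAs on other chromosomes, 114 of 120 were more than 2-fold below input. The median log2 ratio of the members was -4.38, with a range from -6.52 to -2.70, beside -4.70 for the 118 tRNAs elsewhere with a finite ratio and 0.49 for mature miRNAs, the class that Ago2 is known to carry. Scaling each group to its total signal would lower every log2 ratio with Ago2 by 0.43, and centring on the miRNAs would lower it by 0.49, so no member moved above input under either.

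The members closest to input in the Ago2 RNA-IP belonged to several amino acids. The valine tRNA n-TVaac6 had a signal of 228.1 in the RNA-IP and 1485 in the input, a log2 ratio of -2.70. n-TQttg3, a glutamine tRNA, had 23.7 against 206.9 (-3.12), and n-TVcac4, a valine tRNA, had 273.3 against 2651 (-3.28). n-TTagt6, a threonine tRNA, was listed at 5.99 against 51.7 (-3.11), from 22 reads spread over all 3 RNA-IP libraries. The glycine tRNA n-TGgcc6 had the highest Ago2 RNA-IP signal of all members, 1906, but with an input of 20967 its log2 ratio was -3.46. The 4 members that led the input held 73.2% of the members' Ago2 RNA-IP signal.

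At the other end stood the arginine tRNAs. n-TRccg3 had an Ago2 RNA-IP signal of 2.63 against an input of 240.8, the lowest log2 ratio of all (-6.52), and this signal stands for 9 reads in all. n-TRtcg1 had 5.10 against 278.3 (-5.77). Arginine had the lowest median per amino acid in the Ago2 RNA-IP (-6.14), and glutamine the highest (-3.31), each over 2 members. The methionine tRNA n-TMcat13 was listed at 0.88 against 71.2 (-6.34), the valine tRNA n-TVaac4 at 23.9 against 1432 (-5.90), and the threonine tRNA n-TTagt4 at 2.13 against 98.8 (-5.54). Among these, n-TMcat13 rests on 4 RNA-IP reads and n-TTagt4 on 8. The input libraries were uneven for several of them, and against the lowest of the 3 input libraries the log2 ratios were -5.37 for n-TRccg3, -4.33 for n-TRtcg1, -5.45 for n-TMcat13 and -3.00 for n-TTagt4, so that n-TRccg3 was no longer the lowest.

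The entry with no RefSeq tRNA was the single member listed at 0 in any column. It had no Ago2 RNA-IP read, against an input signal of 8.21 from 19 reads. A count of 0 allows up to 3 reads over the group, or a signal of 0.764. With the input signal taken as exact, this limit places the entry at least 10.7-fold lower with Ago2 than in the input. The counting interval of its log2 ratio, which also covers error in the input reads, reached up to -3.00. The entry had 14 of its 19 input reads in a single library and 0 in another. Its signal with Sfpq was 1.36 from 5 reads, against 7.45 in the input. Of the tRNAs on other chromosomes, 50 of 181 were listed at 0 with Ago2 and 37 of 184 with Sfpq.

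In the Sfpq RNA-IP, 39 of the 40 members were below input, but they spread over a wider range than with Ago2. Of the 36 members with a mean signal of at least 20, 29 were more than 2-fold below input, where 45.6% of all 777 small RNAs were, and 25 were more than 4-fold below it (33.5% of all small RNAs). Among tRNAs on other chromosomes, 105 of 121 were more than 2-fold below input and 6 were more than 2-fold above it, where no member was (19% of all small RNAs). The median log2 ratio of the members was -3.07, with a range from -5.14 to 0.38, beside -3.13 for tRNAs elsewhere and 0.44 for mature miRNAs. At the 2-fold limit, n-TQctg10 lay just past it with -1.17 and n-TTagt3 just within it with -0.91. Scaling to the total signal would lower every log2 ratio with Sfpq by 0.63, and the count past 2-fold would then be 35 of 36.

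The 8 members within 2-fold of input in the Sfpq RNA-IP were 5 of the methionine tRNAs, n-TQttg3, n-TVaac6 and n-TTagt3. n-TQttg3, a glutamine tRNA gene at chr13:21268469-21268540, was the only member above input, with an RNA-IP signal of 238.3 against 182.7 and a log2 ratio of 0.38 (0.22 to 0.54), but the ratio was below 0 after scaling to the total signal (-0.24) and after centring on the miRNAs (-0.05). The valine tRNA n-TVaac6 had 863.8 against 1295 (-0.58). The threonine tRNA n-TTagt3 had 12.4 against 23.3 (-0.91), and its mean signal is under 20.

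The 5 methionine tRNA genes of 72 nt had nearly the same input and Sfpq RNA-IP signals. n-TMcat2, n-TMcat5, n-TMcat7, n-TMcat8 and n-TMcat9 had Sfpq RNA-IP signals of 771.6, 806.0, 801.4, 802.1 and 813.0, against input signals of 1092, 1173, 1172, 1176 and 1202. Their log2 ratios with Sfpq ran from -0.56 to -0.50. In the Ago2 RNA-IP the same genes had signals of 49.0, 63.2, 63.5, 63.5 and 65.0, and log2 ratios from -4.64 to -4.37. They thus lay near the middle of the members with Ago2 and among the closest to input with Sfpq. n-TMcat7 and n-TMcat8 shared the same Ago2 RNA-IP signal exactly, and all values of n-TMcat5, n-TMcat7, n-TMcat8 and n-TMcat9 lay within 5% of each other, so these copies may share reads and the 5 genes are not 5 independent measurements.

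The other 3 methionine members, of 73 nt, had far lower levels and did not share these ratios. n-TMcat15, n-TMcat13 and n-TMcat12 had Sfpq RNA-IP signals of 10.9, 16.7 and 3.86 against inputs of 52.5, 62.9 and 28.6, with log2 ratios of -2.26, -1.92 and -2.89. Their Ago2 RNA-IP signals of 4.69, 0.88 and 0.67 stand for 17, 4 and 3 reads, so that the log2 ratio of n-TMcat12 with Ago2, -5.60, has a wide interval (-8.12 to -3.91). The split by gene length was made after the values were seen. n-TMcat3 on chromosome 15, of 72 nt as well, had a log2 ratio of -3.37 with Sfpq, unlike the 5 members of that length. Methionine tRNAs serve either to start a protein or to extend it, but the RefSeq names do not separate these kinds and none was assigned here.

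The members farthest below input in the Sfpq RNA-IP were again of several amino acids. n-TEttc5 had an RNA-IP signal of 237.2 against 8368 (-5.14), and n-TEctc11 had 1172 against 20153 (-4.10), so glutamate had the lowest median per amino acid with Sfpq (-4.62). n-TVaac4 had 36.7 against 1251 (-5.09), and n-TVcac8 had 454.5 against 13112 (-4.85). n-TTagt6 was listed at 1.28 against 44.2 (-5.11), with 5 reads that all came from 1 of the 3 RNA-IP libraries. Its input was uneven too, and against its lowest input library the log2 ratio was -3.50. The serine tRNA n-TSaga6 had 28.8 against 634.3 (-4.46), and its copy n-TSaga5 had 64.5 against 970.3 (-3.91). Glutamine, at the other end, had the highest median per amino acid (-0.39), from n-TQttg3 and from n-TQctg10 with 126.8 against 285.9.

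The 2 valine tRNA genes of anticodon AAC stood at opposite ends of the members, although their inputs were close. n-TVaac4 and n-TVaac6 start 13.4 kb apart inside the same long non-coding RNA gene, 4930557F10Rik, and each is followed by an alanine tRNA gene, n-TAagc10 after 175 bases and n-TAagc11 after 207. In the Ago2 table their inputs were 1432 and 1485, while their Ago2 RNA-IP signals were 23.9 and 228.1. Their signals with Sfpq were 36.7 and 863.8. n-TVaac6 was thus higher in both RNA-IPs. The alanine neighbours did not differ in this way, with Ago2 RNA-IP signals of 12.2 for both and Sfpq RNA-IP signals of 33.3 and 35.3.

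The lysine tRNAs also separated in the Sfpq RNA-IP more than in the Ago2 RNA-IP. n-TKctt28 had 244.7 against 929.7 with Sfpq (-1.93) and n-TKctt11 had 77.4 against 1672 (-4.43), while with Ago2 the log2 ratios of the same genes were -3.80 and -4.30. n-TKctt6, the member that lies alone at 4.22 Mb, had -3.31 with Sfpq and -3.66 with Ago2. The TTT copy n-TKttt23 had 131.5 against 444.6 with Sfpq (-1.76) and -4.25 with Ago2. n-TKttt22 gave -1.24 and -4.05 at a mean signal under 20. The lysine members thus ran from -4.43 to -1.24 with Sfpq and from -4.30 to -3.66 with Ago2.

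The remaining members had log2 ratios inside the range of those already named. The glycine tRNAs n-TGgcc6 and n-TGgcc7 had Sfpq RNA-IP signals of 2114 and 1948 and log2 ratios of -3.12 and -3.22. The isoleucine tRNAs n-TIaat3 and n-TIaat7 had -3.66 and -3.26 with Sfpq, and -4.24 and -4.21 with Ago2. The tryptophan tRNAs n-TWcca3 and n-TWcca4 had -2.85 and -3.02 with Sfpq, and -4.67 and -4.91 with Ago2. The aspartate tRNA n-TDgtc11 had 240.9 against 1106 with Sfpq (-2.20) and 69.4 against 1260 with Ago2 (-4.18). The alanine tRNA n-TAagc13 had -3.41 with Sfpq and -5.43 with Ago2, and the arginine tRNAs n-TRccg3 and n-TRtcg1 had -3.29 and -3.02 with Sfpq. The valine tRNA n-TVcac11 had -3.87 with Sfpq and -4.70 with Ago2.

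Setting the log2 ratios of the 2 RNA-IPs side by side, 35 of the 39 members with a finite ratio in both were closer to input with Sfpq than with Ago2. The 2 ratios of a member share the input libraries. The difference, Sfpq minus Ago2, had a median of 1.82 on the log2 scale, beside 1.56 for the 127 tRNAs elsewhere. At a mean signal of at least 20 in both tables it was 1.68 over 36 members, beside 1.56 for 118 tRNAs elsewhere. Of the 127, 119 had a higher log2 ratio with Sfpq, some of them above input, so a higher ratio there was not always closer to input. The counting interval of the difference lay above 0 for 34 members (52.7% of all 1063 small RNAs with a finite ratio in both), below 0 for 3 (16.7%) and across 0 for 2. Among the tRNAs elsewhere it lay above 0 for 111 of 127. The ratio was more than 2-fold higher with Sfpq for 24 members (33.8% of all small RNAs), more than 8-fold higher for 9 (5.83%) and more than 2-fold lower for 1 (5.83%). For the tRNAs elsewhere these counts were 86, 15 and 0 of 127. The 9 members more than 8-fold higher include the 5 methionine genes of 72 nt, which may share reads. They also include n-TMcat13, n-TTagt3 and n-TRccg3, with 4, 4 and 9 Ago2 RNA-IP reads.

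The largest differences were those of methionine members, although n-TMcat12 and n-TMcat15 had 2.72 and 1.41. The 5 methionine members of 72 nt had differences of 3.81 to 4.14, and n-TMcat13 had the largest of all members, 4.43, with an interval from 2.90 to 6.55 on its few reads. n-TTagt3 followed with 3.68, n-TQttg3 with 3.51 and n-TRccg3 with 3.23. The 4 members that were farther below input with Sfpq were n-TTagt6 (-2.00), n-TEttc5 (-0.51), n-TVcac4 (-0.32) and n-TKctt11 (-0.14), the last with an interval across 0. For n-TTagt6 the 22 Ago2 RNA-IP reads and the 5 Sfpq RNA-IP reads are few, and its interval ran from -3.89 to -0.51.

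**Figure D2:**
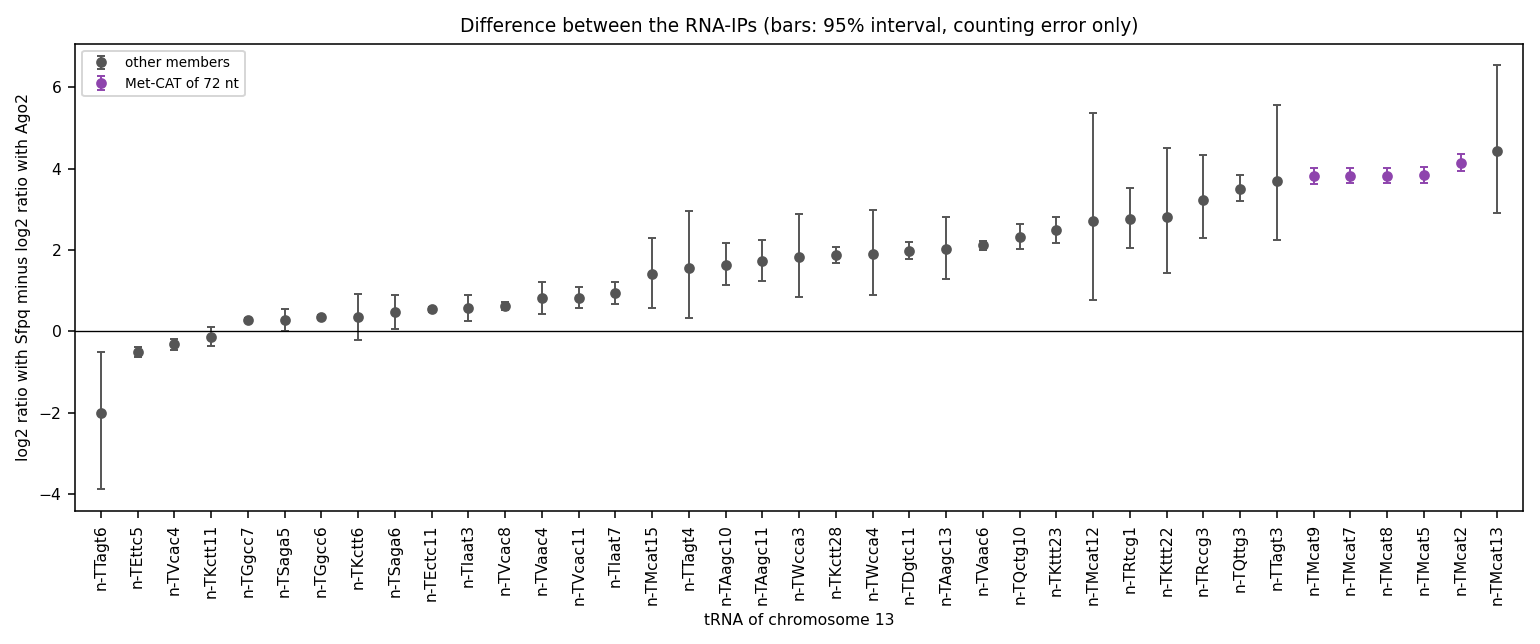
Difference of the log2 ratios, Sfpq RNA-IP minus Ago2 RNA-IP, for the 39 chromosome 13 tRNAs with a finite ratio in both, in order of the difference, with bars for the 95% interval from counting error. The 5 methionine members of 72 nt lie between 3.81 and 4.14 and 4 members lie below 0.

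The difference was small for the members with the highest input. For the 5 members with an input signal above 9000 it ran from -0.51 to 0.62, with a median of 0.34. For the 13 members with an input signal from 1000 to 9000 the median was 1.98, for the 12 from 100 to 1000 it was 1.87 and for the 9 lower ones with a finite ratio it was 1.89. Within the band from 1000 to 9000 the difference ran from -0.32 to 4.14. Its 13 members include the 5 methionine genes of 72 nt, at 3.81 to 4.14. These 5 may share reads, and the median of the band counts each of them. In the Sfpq RNA-IP the 5 highest-input members had log2 ratios from -5.14 to -3.12, while those of the next 13 ran from -5.09 to -0.50. These bands were set after the values were seen.

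The mix of members differed between the RNA-IPs. The members held 25.5% of the tRNA signal in the input, 24.8% with Ago2 and 19.8% with Sfpq. The 4 members of highest input, n-TEctc11, n-TGgcc6, n-TGgcc7 and n-TVcac8, held 45.1% of the members' signal in the Sfpq RNA-IP, against 70.1% in the input of the same table. Of all small RNA signal, the members made up 1.56% in the input, 0.0698% with Ago2 and 0.127% with Sfpq. All these are shares of summed signal. Copies with near-equal values may share reads, so the sums may count some reads more than once.

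Along the chromosome the members fell into 2 groups of genes and 1 single gene, with gaps of more than 1 Mb between them. The first group held 21 members over 869 kb, from chr13:21160785 to 22029296. This stretch has 57 RefSeq tRNA genes and, by gene symbol, at least 17 histone genes among its 40 protein-coding genes. The second held 18 members over 245 kb, from chr13:23285401 to 23530419, with 44 RefSeq tRNA genes and 4 protein-coding genes, 2 of them butyrophilin genes. Its last member, n-TMcat9, lies 625 bases from the histone gene H4c8. n-TKctt6 lies alone at chr13:4224148-4224220.

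The log2 ratios of the 2 groups overlapped over nearly their whole range. With Ago2 the medians were -4.31 in the first group and -4.60 in the second, and with Sfpq they were -2.23 and -3.12. The ranges with Sfpq ran from -4.85 to 0.38 in the first group and from -5.14 to -0.54 in the second. Of the methionine genes of 72 nt, n-TMcat7, n-TMcat2 and n-TMcat8 lie in the first group and n-TMcat5 and n-TMcat9 in the second, and their log2 ratios with Sfpq were -0.55, -0.50, -0.55, -0.54 and -0.56 in this order. Neighbours often differed, as in n-TGgcc7 and n-TMcat7, which start 414 bases apart and had log2 ratios with Sfpq of -3.22 and -0.55. In the same way n-TSaga5 and n-TQctg10 start 985 bases apart and had -3.91 and -1.17.

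**Figure D3:**
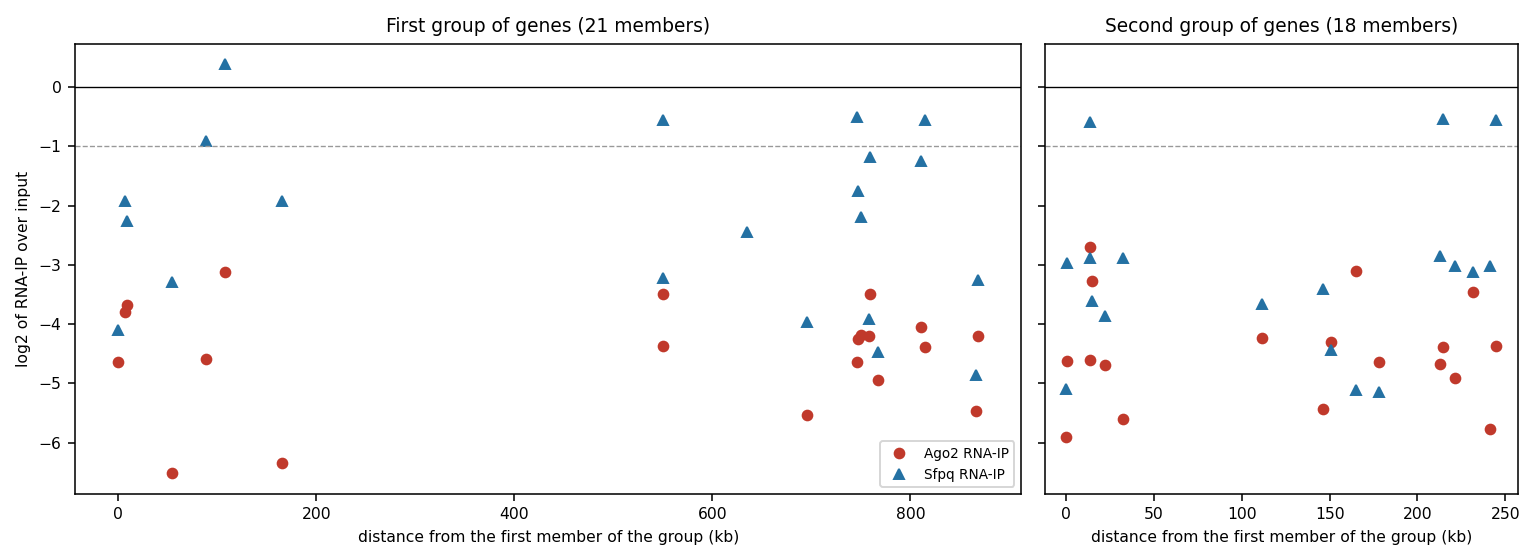
Log2 of RNA-IP over input for the members of the first (21 members) and second (18 members) group of genes against the distance in kb from the first member of each group, with circles for Ago2 and triangles for Sfpq, and with lines at input (0) and at 2-fold below it. High and low ratios alternate along both stretches, and the member at 635 kb has a triangle alone because its Ago2 RNA-IP signal is 0.

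Copies of the same anticodon on other chromosomes were set beside the members for the 16 anticodons that had any. With Ago2 the median log2 ratio of the members was within 1 log2 unit of that of the copies elsewhere for 12 of the 16, and with Sfpq for 8 of the 16. The widest gap in both RNA-IPs was in Gln-CTG. n-TQctg10 had -3.49 with Ago2 and -1.17 with Sfpq, while the 3 copies elsewhere had medians of -0.34 and 2.24, and with Sfpq these copies were above input. Asp-GTC went the other way, with -2.20 for n-TDgtc11 with Sfpq against a median of -4.27 for 6 copies elsewhere.

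For valine AAC, n-TVaac4 was like the 2 copies elsewhere and n-TVaac6 was not. The copies elsewhere had log2 ratios of -5.89 and -5.88 with Ago2, beside -5.90 for n-TVaac4 and -2.70 for n-TVaac6. With Sfpq they had -5.55 and -5.56, beside -5.09 and -0.58. Glu-CTC and Gly-GCC showed almost no gap. n-TEctc11 had -4.65 with Ago2 beside a median of -4.65 for 2 copies elsewhere, and the 2 glycine members had a median of -3.48 beside -3.52 for 5 copies. The values of n-TEctc11 lay within 5% of those of n-TEctc6 on chromosome 1 and of n-TEctc13 on chromosome 3. Those of n-TGgcc6 lay within 5% of n-TGgcc2 on chromosome 8, and those of n-TIaat7 within 5% of n-TIaat5 on chromosome 11. The reads of these copies may be shared between chromosome 13 and elsewhere.

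**Figure D4:**
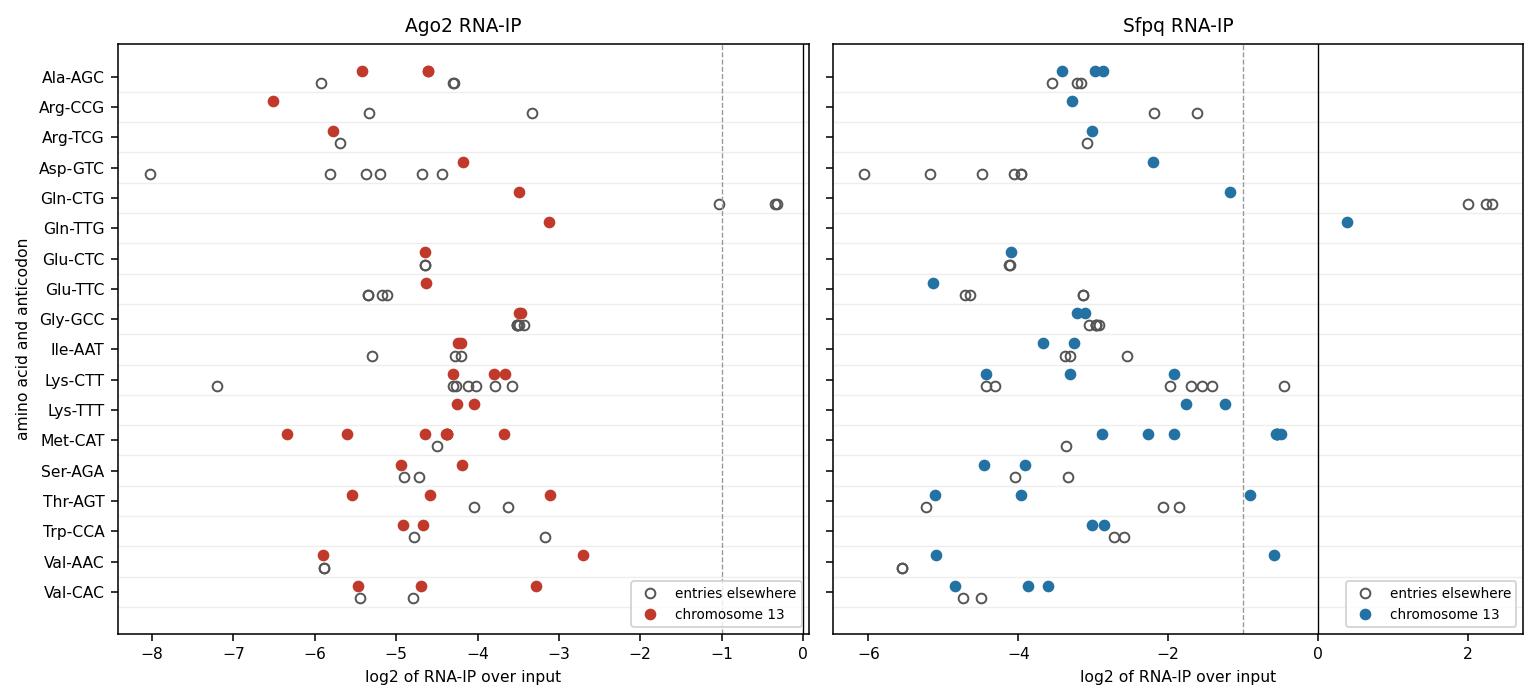
Log2 of RNA-IP over input per anticodon for chromosome 13 tRNAs (filled) and for tRNAs of the same anticodon elsewhere (open), with Ago2 on the left and Sfpq on the right, 1 point per entry with a finite ratio and lines at input and at 2-fold below it. The filled and open points of Gln-CTG lie apart in both panels, and those of Glu-CTC and Gly-GCC lie together.

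The input libraries could be compared with each other. Both tables pool the same 3 input libraries with different weights, and for an input signal under 1000 the 2 values together fit 1 set of whole read numbers. This held for all 1407 small RNAs of that level and gave the reads of 22 members in each input library, although not which library is which. For most of these members the input libraries were close. The 21 members with an input signal of at least 20 in the Ago2 table were compared. Their highest library exceeded the lowest by a median factor of 1.52, beside 1.46 for 88 tRNAs elsewhere and 2.05 for 192 mature miRNAs. For 8 of these 21 members the factor was above 2, beside 26.1% of the tRNAs elsewhere and 59.4% of all small RNAs at that level. The entry with no RefSeq tRNA lay under that input signal, and 1 of its input libraries has 0 reads.

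The threonine members had the least even input. n-TTagt4 had 293, 15 and 11 reads in the 3 input libraries and n-TTagt6 had 136, 14 and 11, with the first library the highest for both. n-TTagt3 had 6, 49 and 8. The input signal of these genes thus rests mainly on a single library, and so do their log2 ratios. n-TTagt4, at -5.54 with Ago2 against the pooled input, was at -3.00 against its lowest input library. n-TTagt6, at -3.11 with Ago2 against the pooled input, was at -1.49 against its lowest input library. n-TTagt3, at -0.91 with Sfpq, was at 1.35 against its lowest input library, a change from below to above input.

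The other uneven members were n-TKctt6 with 369, 101 and 69 reads, n-TRccg3 with 122, 217 and 227, n-TRtcg1 with 115, 286 and 250, n-TMcat13 with 43, 54 and 71, and n-TKttt22 with 10, 13 and 26. The entry with no RefSeq tRNA had 0, 14 and 5. In contrast, n-TQttg3 had 202, 188 and 138 reads and n-TQctg10 had 351, 285 and 204, which after scaling differed by factors of 1.26 and 1.10. The Sfpq RNA-IP signal of n-TQttg3 was above all 3 of its input libraries as deposited, but above none after scaling to the total signal and above 1 after centring on the miRNAs.

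Against the lowest of the 3 input libraries, 21 of the 22 members were still more than 2-fold below input with Ago2, and the entry with no RefSeq tRNA could not be placed because its lowest library has 0 reads. With Sfpq, 18 of the 22 were more than 2-fold below their lowest input library. n-TQttg3, n-TTagt3 and n-TKttt22 were not, with log2 ratios of 0.58, 1.35 and 0.03 against it, nor was the entry with 0 reads. For the 18 members with a mean signal of at least 20 and a resolved input, the median log2 ratio against the lowest library was -4.14 with Ago2, beside -4.61 against the pooled input, and -2.55 with Sfpq, beside -3.02.

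**Figure D5:**
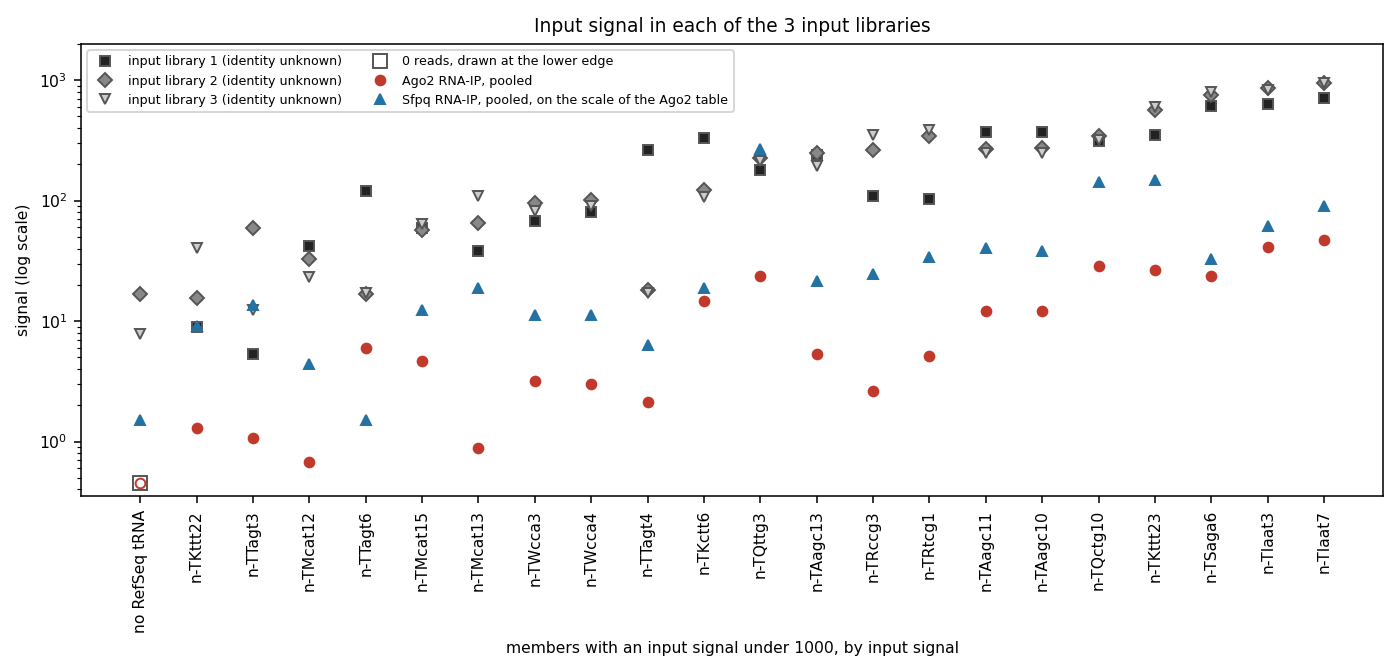
Signal of the 22 members with an input signal under 1000 in each of the 3 input libraries (dark, mid and light symbols), with the pooled Ago2 RNA-IP (circles) and the pooled Sfpq RNA-IP (triangles, rescaled to the Ago2 table), on a log axis with 0 drawn at the lower edge. The threonine members n-TTagt4 and n-TTagt6 each have 1 input library far above the other 2, and the circles lie below all 3 input libraries of every member whose input libraries all have reads.

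At low RNA-IP signals the reads per RNA-IP library could be resolved as well. Of the 12 members above 0 and under a signal of 10 in the Ago2 RNA-IP, 7 had reads in all 3 libraries, and of the 7 such members in the Sfpq RNA-IP, 5 had. The tryptophan tRNAs n-TWcca3 and n-TWcca4 had 18, 8 and 9 and 18, 11 and 6 reads in the Sfpq RNA-IP and 8, 1 and 4 and 7, 1 and 4 in the Ago2 RNA-IP. n-TKttt22 had 4 Ago2 RNA-IP reads, all in 1 library. n-TTagt4 had 16, 2 and 2 reads in the Sfpq RNA-IP. For the other members the spread between RNA-IP libraries was not tested.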

How the data were processed

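Each value is a signal that the authors normalised and deposited as 1 number per small RNA and group, pooled over 3 libraries. Per the study's methods, the omiRas webserver served to map reads, normalise them and set RNA-IP against input, and the LifeScope pipeline is named for mapping too, while cutadapt and mm10 stand in the submitters' processing notes, so which mapping made the values is not given in the sources used here. The deposited tables also hold the authors' log2 ratios, p-values and false discovery rates, and 3 lists of selected RNAs, none of which was used. Groups came from the sample titles.

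The members and lists were chosen with earlier results of these data known. Log2 ratios were recomputed from the signals with no pseudocount. Values under 2 were sums of whole multiples of 3 weights in each column (100% within 2e-05), which gives the reads per signal. Input reads per library were solved from both tables together. These steps were tested on simulated data. Named in full were the 10 members of highest input, the 5 highest and 5 lowest ratios per RNA-IP, members at 0 or above input, and the amino acids with the highest and lowest median. Python 3.11.15, pandas 2.3.3, NumPy 2.4.6, SciPy 1.17.1 and matplotlib 3.10.9 were used. RefSeq gave gene names and coordinates (GRCm38). Alternatives covered pseudocounts, filters, scaling, the input column and the members included.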

Additional observations from a re-analysis of the deposited data

How the results depend on the processing

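No paired analysis was possible because each group has 1 pooled value per small RNA. The counts of members past 2-fold stayed within 1.5 times of the values given (30 to 40 with Ago2 and 22 to 35 with Sfpq, where the number of members counted also changed from 29 to 40), and no median changed sign. With the Ago2 RNA-IP, the median log2 ratio of -4.38 became -3.94 with a pseudocount of 10. It became -4.80 scaled to the total signal and -4.87 centred on the miRNAs. For the 18 of these members with a resolved input, -4.61 became -4.14 against the lowest input library, an alternative chosen after seeing the data. With Sfpq, -3.07 became -3.69 scaled to the total signal. A pseudocount of 10 gave -2.99 (Ago2) and -2.70 (Sfpq) for n-TKctt6, -3.94 and -2.67 for the second group of genes, and 0.78 for the median difference between the RNA-IPs, which was 1.82. The log2 ratio of n-TQttg3 with Sfpq fell below 0 scaled to the total signal (-0.24) and centred on the miRNAs (-0.053). Without the highest-input member, the share of the tRNA signal was 22.2% (Ago2), 18.3% (Sfpq) and 21.4% in the input of either table, and with all small RNAs as the denominator it was 0.0698%, 0.127%, and 1.56% and 1.54% in the 2 inputs. The cause of these changes was not tested beyond the construction of each alternative. Collapsing identical gene sequences was not run, since no genome sequence was used here. Depth limits the members listed under a signal of 10, and the absence of a control RNA-IP and of values per RNA-IP library limits all ratios.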
